A study of Mus musculus with 18 samples.

Results

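A group of 9 genes of SMAD signalling were followed in mouse tubular epithelial cells treated with transforming growth factor β (TGFβ). They were taken as a fixed list of mouse symbols matched to the Ensembl identifiers of the count table. The 9 are the signal-carrying SMADs Smad2, Smad3 and Smad4, and the feedback and target genes Smad7, Skil, Pmepa1, Ldlrad4, Tgif1 and Klf10. They are 9 of 55487 gene rows, and all 9 are among the 13469 genes that passed the low-count filter and were tested.

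TGFβ binds paired serine/threonine kinase receptors, which phosphorylate SMAD2 and SMAD3. These pair with SMAD4, enter the nucleus and switch target genes on or off together with partner factors. Several of the first genes switched on encode brakes of the same pathway, among them the inhibitory SMAD7, the corepressor SnoN (Skil) and the membrane proteins PMEPA1 and LDLRAD4. In the kidney tubule this pathway is known for its part in loss of epithelial traits and in fibrosis.

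The cells are im-TEC, a line of tubular epithelial cells immortalized with an SV40 large T antigen that works at low temperature with interferon-γ; both were withdrawn before the cells were seeded. All groups share this line, and treatment lasted 48 h. The groups were TGFβ (10 ng/mL), TGFβ+NAM (TGFβ with 1 mM nicotinamide), TGFβ+SAM (TGFβ with 0.5 mM S-adenosyl methionine), NAM (1 mM nicotinamide), SAM (0.5 mM S-adenosyl methionine) and control (none of the 3), with 3 libraries each. RNA was read near the 3′ end of polyadenylated transcripts. A single line stands for tubular epithelium here, and nothing says that replicates came from separate cultures, so p-values measure the spread between these libraries only.

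Each library held between 4171170 and 7717626 reads in genes, and each of the 9 genes had between 57 and 9243 reads in a library. The widest scores on principal component 3 were those of TGFβ+NAM replicate 1 (30.4) and NAM replicate 3 (31.9), 2 libraries set apart from all others on it. On component 2, TGFβ+SAM replicate 3 (-20.2) lay apart from TGFβ+SAM replicates 1 (-39.5) and 2 (-39.6). The treatment tags of SAM replicates 2 and 3 go against their titles, by which they were grouped. In fits that left both out, SAM replicate 1 was the only SAM library. The SAM and TGFβ+SAM libraries carry a separate run of library numbers, so an effect of SAM and one of separate handling cannot be told apart; TGFβ+SAM against SAM lies within that run. Of 13 tubular markers, Pax8 averaged 233 CPM and Pax2 305 CPM in control, whereas Epcam and Hnf4a had no read in any library. The summed level of these 13 markers was 817 to 902 CPM in TGFβ libraries and 1941 to 2029 CPM in control libraries, with Aqp1 at 106 CPM in TGFβ and 1031 CPM in control. Of 8 fibroblast markers the sum was 109 to 115 CPM in TGFβ and 3.29 to 7.09 CPM in control, nearly all of it Col1a1, with Lum and Dpt without reads. Of 7 immune markers the sum was 5.73 to 8.33 CPM in TGFβ and 12.01 to 15.4 CPM in control, nearly all Cd68; of 5 endothelial markers it stayed at or below 1.38 CPM in every library. Of 4 podocyte markers the sum was 312 to 346 CPM in TGFβ and 299.99 to 327 CPM in control, nearly all of it Synpo and Podxl. Wt1 averaged 1.02 CPM in TGFβ and 0.394 CPM in control, and Nphs1 had no reads. The part of these shifts in the values that follow was not tested.

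In cells treated with TGFβ alone, 3 of the 9 genes rose and none fell: Pmepa1 about 4.94-fold, Ldlrad4 2.25-fold and Skil 1.96-fold. The test was edgeR's quasi-likelihood F test with a Benjamini-Hochberg adjusted p under 0.05, which called 9.7% of all genes higher and 9.74% lower in this comparison. Smad7, Smad4, Smad2, Smad3, Tgif1 and Klf10 did not pass it. The same 3 genes rose with TGFβ in cells given NAM and in cells given SAM, a pattern of 3 higher calls that 6.07% of all tested genes had. Levels are given in CPM, read counts scaled to library size with trimmed-mean (TMM) factors. As reads come from the 3′ end of transcripts, levels are compared within a gene and not between genes. In RNA from whole cultures, more RNA per cell and more cells that make it cannot be told apart.

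**Figure D1:**
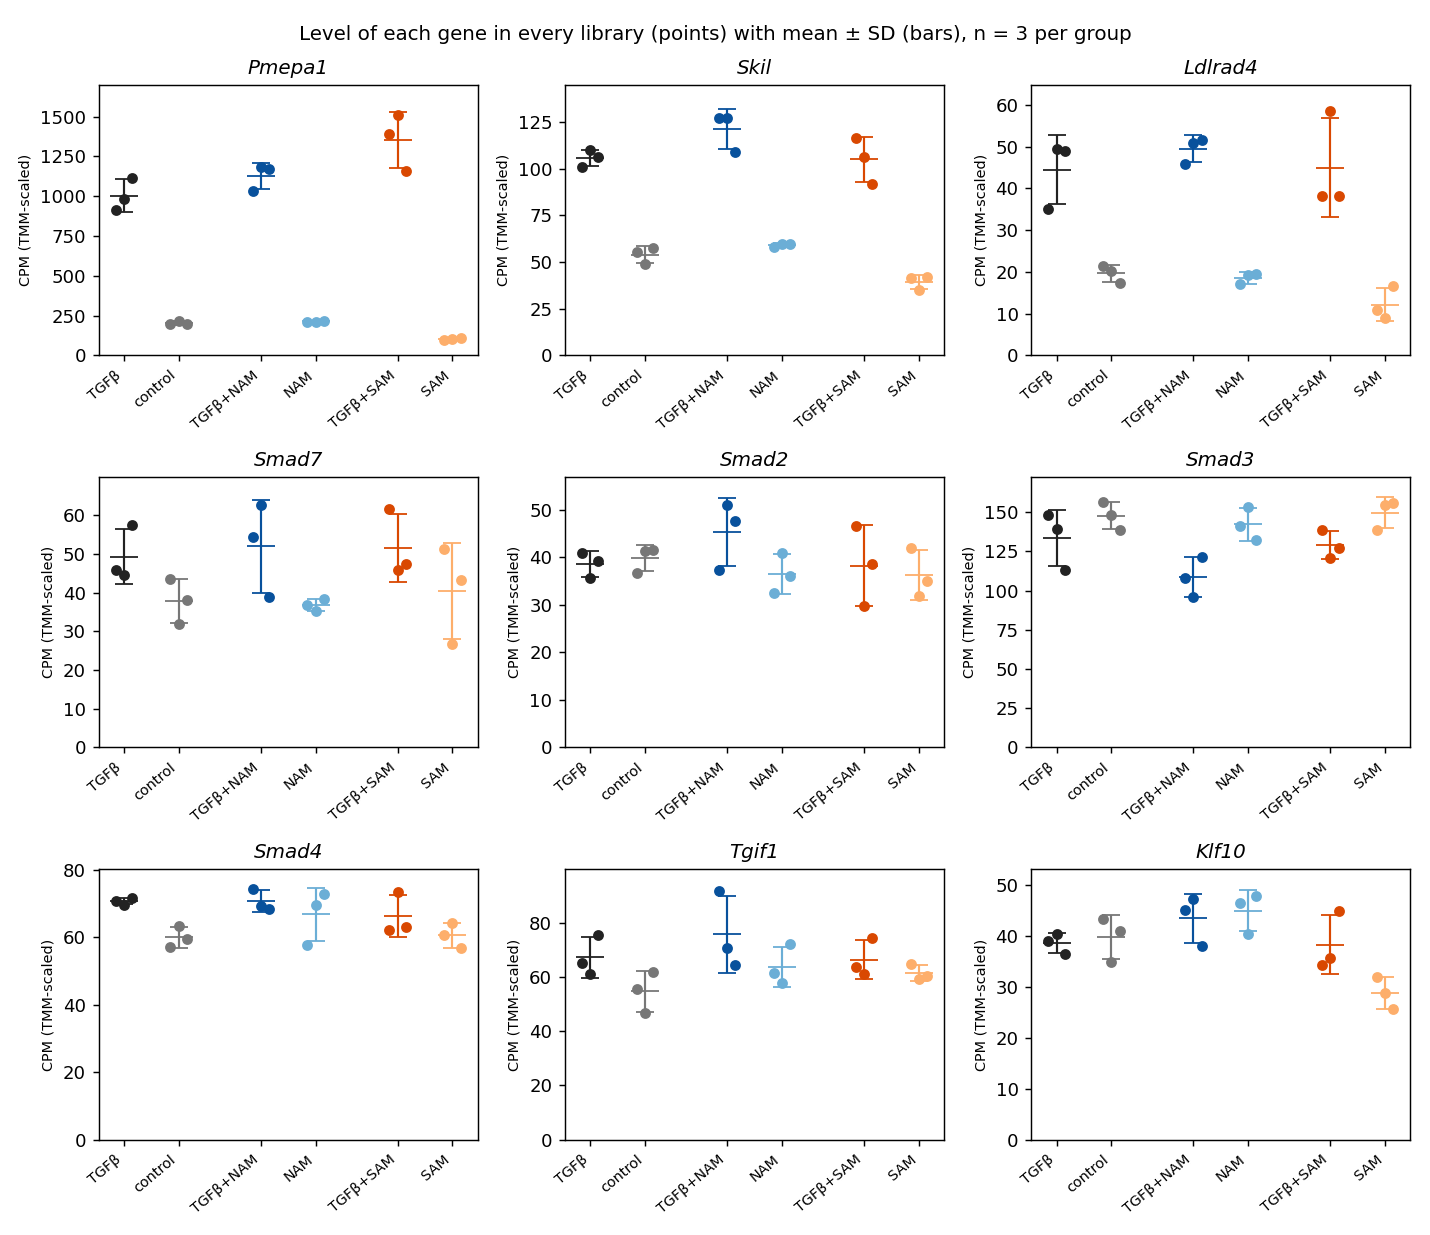
Level of each of the 9 genes in CPM (linear axis from 0) in every library; points are libraries, long bars the group mean and whiskers 1 SD, with 3 libraries per group. The TGFβ-treated libraries of Pmepa1, Skil and Ldlrad4 all lie above the libraries of their own background, while those of Klf10 lie among the control libraries at 36.4 to 40.4 CPM.

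Pmepa1 encodes a membrane protein that binds SMAD2 and SMAD3 and keeps them from the receptor, and it moved most. It lies on chromosome 2 (GRCm38, 173224458 to 173276533, minus strand; ENSMUSG00000038400). Its level was 916, 983 and 1114 CPM in the TGFβ libraries, against 197, 215 and 197 CPM in control libraries. In TGFβ+NAM libraries it was 1034, 1184 and 1169 CPM, against 209.9, 212 and 215 CPM in NAM libraries. In TGFβ+SAM libraries it was 1393, 1508 and 1159 CPM, against 97.7, 101 and 107 CPM in SAM libraries. No TGFβ-treated library overlapped with a library of its background, and the SAM libraries were the lowest of all 18. The log2 changes were 2.31 ± 0.09 for TGFβ against control (SE; adjusted p = 1.05e-22), 2.41 ± 0.09 for TGFβ+NAM against NAM (2.02e-23) and 3.73 ± 0.09 for TGFβ+SAM against SAM (4.44e-29), the last a 13.3-fold difference. It stood at rank 10, 10 and 4 by p among all tested genes in these comparisons.

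Skil encodes SnoN, a corepressor that holds SMAD complexes inactive on DNA and is degraded and then made anew when TGFβ arrives. It lies on chromosome 3 (GRCm38, 31095058 to 31122577, plus strand; ENSMUSG00000027660). Its level was 101, 109.8 and 106 CPM in TGFβ libraries, against 55.1, 48.9 and 57.6 CPM in control libraries. TGFβ+NAM libraries had 127, 127 and 109 CPM, against 58.2, 59.6 and 59.6 CPM in NAM libraries. TGFβ+SAM libraries had 116, 106 and 92.0 CPM, against 41.2, 34.9 and 41.7 CPM in SAM libraries. All 9 TGFβ-treated libraries lay above all 9 untreated ones. The log2 changes were 0.97 ± 0.11 on the control background (adjusted p = 8.47e-09), 1.03 ± 0.11 with NAM (1.18e-09) and 1.42 ± 0.12 with SAM (5.44e-13).

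Ldlrad4 encodes a membrane protein related to PMEPA1 that also lowers SMAD2 and SMAD3 activation. It lies on chromosome 18 (GRCm38, 67933257 to 68268630, plus strand; ENSMUSG00000024544). Its level was 35.0, 49.5 and 48.9 CPM in TGFβ libraries, against 21.3, 20.3 and 17.4 CPM in control libraries. TGFβ+NAM libraries had 45.9, 51.0 and 51.7 CPM, against 17.0, 19.1 and 19.4 CPM in NAM libraries. TGFβ+SAM libraries had 38.1, 58.6 and 38.2 CPM, against 10.8, 8.91 and 16.6 CPM in SAM libraries. The groups did not overlap on any background, and replicate 2 of TGFβ+SAM was the highest of the 18 libraries. The log2 changes were 1.17 ± 0.19 on the control background (adjusted p = 6.64e-06), 1.42 ± 0.19 with NAM (1.16e-07) and 1.90 ± 0.20 with SAM (3.12e-10). Ldlrad4 shares 2798 exon bases with Fam210a on the opposite strand, and whether the counting used strand is not stated in the labels. Reads of the overlapping stretch cannot be assigned with certainty; Fam210a had 2356 reads and Ldlrad4 3432 over all libraries.

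**Figure D2:**
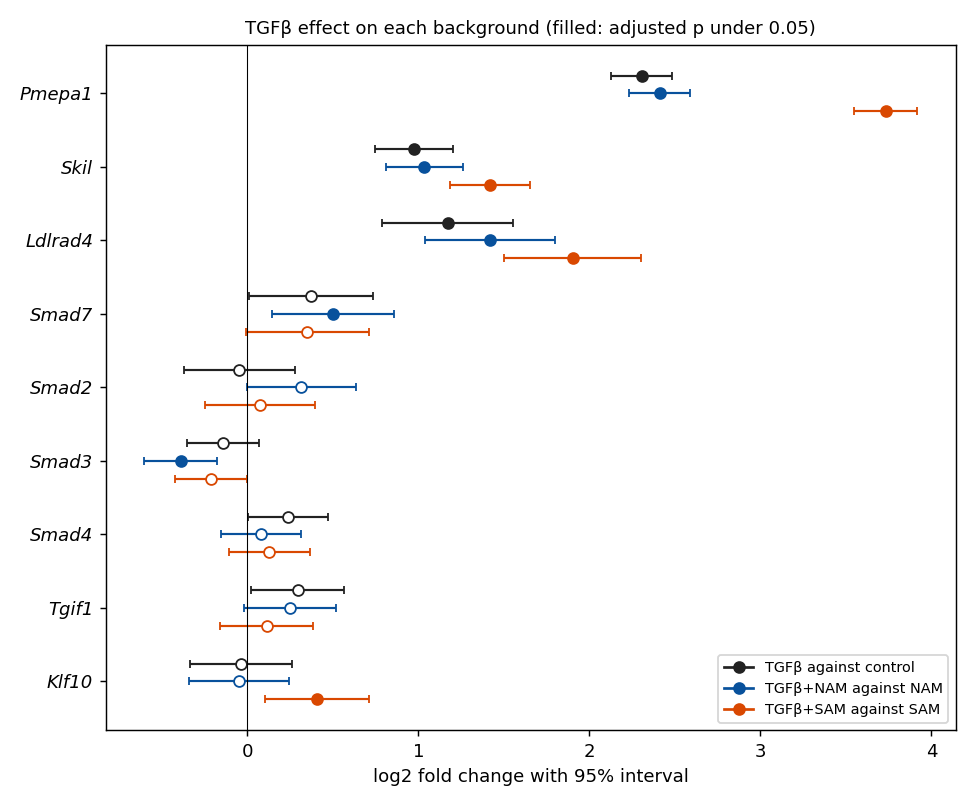
Fitted log2 fold change of each gene for TGFβ against control, TGFβ+NAM against NAM and TGFβ+SAM against SAM, with 95% intervals; filled points have an adjusted p under 0.05. Pmepa1, Skil and Ldlrad4 are filled in all 3 comparisons, and the Pmepa1 interval with SAM (3.55 to 3.91) lies apart from the interval without it (2.13 to 2.48).

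Smad7, the inhibitory SMAD that blocks the receptor and brings ubiquitin ligases to it, changed far less in size than these 3 genes. Its level was 45.8, 44.6 and 57.5 CPM in TGFβ libraries, against 43.5, 32.0 and 38.0 CPM in control libraries. The TGFβ libraries lay above the control libraries without overlap and the log2 change of 0.37 ± 0.18 did not pass (adjusted p = 0.154). TGFβ+NAM libraries had 54.4, 62.7 and 38.9 CPM, against 36.7, 35.3 and 38.4 CPM in NAM libraries. Here the log2 change of 0.50 ± 0.18 passed (adjusted p = 0.0362). Of its 27 alternatives, 19 kept this call, with adjusted p between 0.00682 and 0.252. It was lost without NAM replicate 1 (0.0822), 2 (0.0993) or 3 (0.0511), without TGFβ+NAM replicate 1 (0.0681) or 2 (0.252), and without both libraries that stood apart (0.0866). TGFβ+SAM libraries had 61.7, 45.8 and 47.3 CPM, against 51.2, 26.7 and 43.3 CPM in SAM libraries, which overlapped. The log2 change of 0.35 ± 0.18 did not pass (adjusted p = 0.143), whereas without SAM replicate 1 it was 0.57 and passed (0.0287). The NAM interaction of Smad7, its TGFβ effect with NAM minus that without, was 0.13 ± 0.25 and did not pass (adjusted p = 1).

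Klf10, a zinc-finger repressor first described as an early TGFβ-inducible gene, was not higher after 48 h of TGFβ alone. Its level was 38.9, 40.4 and 36.4 CPM in TGFβ libraries, against 43.3, 34.9 and 40.9 CPM in control libraries. The groups overlapped, and the 95% interval of the log2 change ran from -0.34 to 0.26 (adjusted p = 0.908). With NAM it averaged 43.4 ± 4.76 CPM in TGFβ+NAM and 44.9 ± 3.98 CPM in NAM (SD, n = 3 each), with an interval from -0.34 to 0.25 (adjusted p = 0.872). In TGFβ+SAM libraries it was 34.2, 35.6 and 44.8 CPM, against 31.9, 28.8 and 25.7 CPM in SAM libraries, without overlap. That log2 change of 0.41 ± 0.15 passed (adjusted p = 0.0366), with the TGFβ+SAM mean of 38.2 CPM beside 38.6 CPM in TGFβ. Without SAM replicate 2 its adjusted p was 0.0813, without SAM replicate 3 it was 0.157, and without TGFβ+SAM replicate 3 it was 0.245. With both SAM libraries of conflicting tags left out, which leaves SAM replicate 1 alone, the log2 change was 0.27.

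The signal-carrying SMADs changed little. Smad2, phosphorylated by the receptor, averaged 38.6 ± 2.70 CPM in TGFβ and 39.9 ± 2.81 CPM in control, and on the 3 backgrounds its log2 changes of -0.05, 0.32 and 0.07 did not pass (adjusted p between 0.161 and 0.895). Smad4, the shared partner, was at 70.9, 69.8 and 71.7 CPM in TGFβ libraries, against 57.1, 63.5 and 59.5 CPM in control libraries. These did not overlap, yet the log2 change of 0.24 ± 0.12 did not pass (adjusted p = 0.164), nor did those of 0.08 with NAM and 0.13 with SAM. In all, 5 of the 9 genes, Pmepa1, Skil, Ldlrad4, Smad7 and Smad4, had TGFβ libraries above all control libraries, as did 18.2% of all genes. With NAM and with SAM the count was 4 of 9 (Pmepa1, Skil, Ldlrad4 and Smad7 with NAM; Klf10 in place of Smad7 with SAM), as against 16.5% and 19.4% of all genes.

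Smad3, the receptor-activated SMAD that binds DNA directly, was the 1 gene of the 9 called lower with TGFβ, in the comparison of TGFβ+NAM with NAM. Its level was 108, 96.2 and 121 CPM in TGFβ+NAM libraries, against 141, 153 and 132 CPM in NAM libraries, without overlap. The log2 change was -0.39 ± 0.10 (adjusted p = 0.00479); 4 of the 9 genes were called higher and Smad3 lower here, beside 10.9% and 11% of all genes. Without TGFβ+NAM replicate 2 the call was lost (-0.31, adjusted p = 0.0617), and without both libraries that stood apart it stayed at -0.44 (0.00585). TGFβ libraries had 148, 139 and 113 CPM, against 156, 148 and 139 CPM in control libraries (-0.14 ± 0.10, adjusted p = 0.396). TGFβ+SAM libraries had 139, 121 and 127 CPM, against 138, 155 and 156 CPM in SAM libraries (-0.21 ± 0.10, adjusted p = 0.125). All 3 estimates had the same sign, and the NAM interaction, the test of whether NAM altered the TGFβ effect, did not pass for Smad3 (-0.25 ± 0.15, adjusted p = 1).

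Tgif1, a homeodomain corepressor of SMAD complexes, was at 65.0, 61.1 and 75.4 CPM in TGFβ libraries, against 55.7, 46.6 and 61.8 CPM in control libraries, which overlapped. Its log2 changes of 0.29 ± 0.14, 0.25 ± 0.13 and 0.11 ± 0.13 on the control, NAM and SAM backgrounds did not pass (adjusted p = 0.135, 0.196 and 0.586). Promoter windows were in hand for Smad3 and Tgif1, 2 of the 9 genes, and they are shown because SMAD proteins bind short motifs near such starts. Each window runs from 250 bases before to 50 bases after an annotated start and is given 5′ to 3′ on the gene's strand (RefSeq, GRCm38.p6). Capitals mark the SMAD box CAGAC or its reverse complement GTCTG.
Smad3, chr9:63757945-63758244, minus strand: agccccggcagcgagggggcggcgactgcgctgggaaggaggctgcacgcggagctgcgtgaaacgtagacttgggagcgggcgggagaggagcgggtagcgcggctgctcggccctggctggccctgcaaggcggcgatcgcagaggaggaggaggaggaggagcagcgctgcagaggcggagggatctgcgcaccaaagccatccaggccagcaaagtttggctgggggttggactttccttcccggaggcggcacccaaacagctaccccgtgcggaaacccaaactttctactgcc
Tgif1, first start, chr17:70853483-70853782, minus strand: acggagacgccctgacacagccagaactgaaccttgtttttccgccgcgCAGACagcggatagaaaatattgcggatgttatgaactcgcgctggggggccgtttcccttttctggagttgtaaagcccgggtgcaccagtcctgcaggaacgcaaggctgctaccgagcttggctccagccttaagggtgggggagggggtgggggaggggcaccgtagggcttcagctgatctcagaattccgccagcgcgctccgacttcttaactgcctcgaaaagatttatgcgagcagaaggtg
Tgif1, second start, chr17:70851685-70851984, minus strand: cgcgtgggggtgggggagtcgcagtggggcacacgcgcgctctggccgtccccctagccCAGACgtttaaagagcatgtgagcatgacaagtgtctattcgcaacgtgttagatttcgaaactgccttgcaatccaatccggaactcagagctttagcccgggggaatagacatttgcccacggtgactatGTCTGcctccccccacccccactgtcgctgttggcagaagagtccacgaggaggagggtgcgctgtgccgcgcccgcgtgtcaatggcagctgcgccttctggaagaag
The Smad3 window held no SMAD box, no GC-rich SMAD motif GGCGC and no TGIF motif TGTCA on either strand. The first Tgif1 window held 1 SMAD box, no GGCGC and 1 TGTCA, and the second held 2 of each. Tgif1 has 5 such windows, and the 3 not printed held 0, 1 and 0 SMAD boxes, with 2, 1 and 0 GC-rich SMAD motifs and 1, 0 and 3 TGIF motifs. CAGAC and TGTCA may share the letters CA where they meet. Among 32851 such mouse windows, 49.6% held a SMAD box, 36.9% held GGCGC and 45.4% held TGTCA. A match is a string of letters and no evidence of binding.

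In SAM against control, 4 of the 9 genes were called lower and none higher. Pmepa1 was at 97.7, 101 and 107 CPM in SAM libraries, against 197, 215 and 197 CPM in control libraries, a fold of 0.502. Its log2 change was -0.99 ± 0.09 (adjusted p = 1.56e-10). Ldlrad4 averaged 12.1 ± 3.98 CPM in SAM and 19.7 ± 2.02 CPM in control (SD, n = 3 each), with a log2 change of -0.71 ± 0.21 (adjusted p = 0.0169). Skil averaged 39.2 ± 3.81 CPM in SAM and 53.9 ± 4.48 CPM in control (-0.46 ± 0.12, adjusted p = 0.00779). Klf10 averaged 28.8 ± 3.10 CPM in SAM and 39.7 ± 4.32 CPM in control (-0.46 ± 0.15, adjusted p = 0.0355). In all 4 genes every SAM library lay below every control library, as in 16.2% of all genes; 6.79% of all genes were called lower and 5.02% higher. The genes are 3 brakes of the pathway and Klf10, which was not called with TGFβ on the control or NAM background. They include each of the 3 that rose with TGFβ on every background. The SMADs Smad2, Smad3, Smad4 and Smad7 and the corepressor Tgif1 did not pass, with log2 changes between -0.13 and 0.17.

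Of these calls, that of Pmepa1 held in all 27 alternatives, with log2 changes between -1.06 and -0.95. The other 3 kept their sign in all alternatives but lost the call in some. The Skil call held in 25 of 27 and was lost without SAM replicate 2 (-0.38, adjusted p = 0.0623). The Ldlrad4 call was lost without control replicate 1 (0.0739) or 2 (0.0564) and without SAM replicate 1 (0.08) or 2 (0.131). The Klf10 call was lost without control replicate 1 (0.164) or 3 (0.0932) and without SAM replicate 2 (0.0838) or 3 (0.165). With both SAM libraries of conflicting tags left out, SAM replicate 1 was the only SAM library. The log2 changes were then -0.39 for Skil, -0.87 for Ldlrad4 and -0.32 for Klf10. The summed level of the 7 immune markers, nearly all Cd68, was 20.6 to 34.1 CPM in SAM and 12.01 to 15.4 CPM in control libraries, and its part in these values was not tested.

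**Figure D3:**
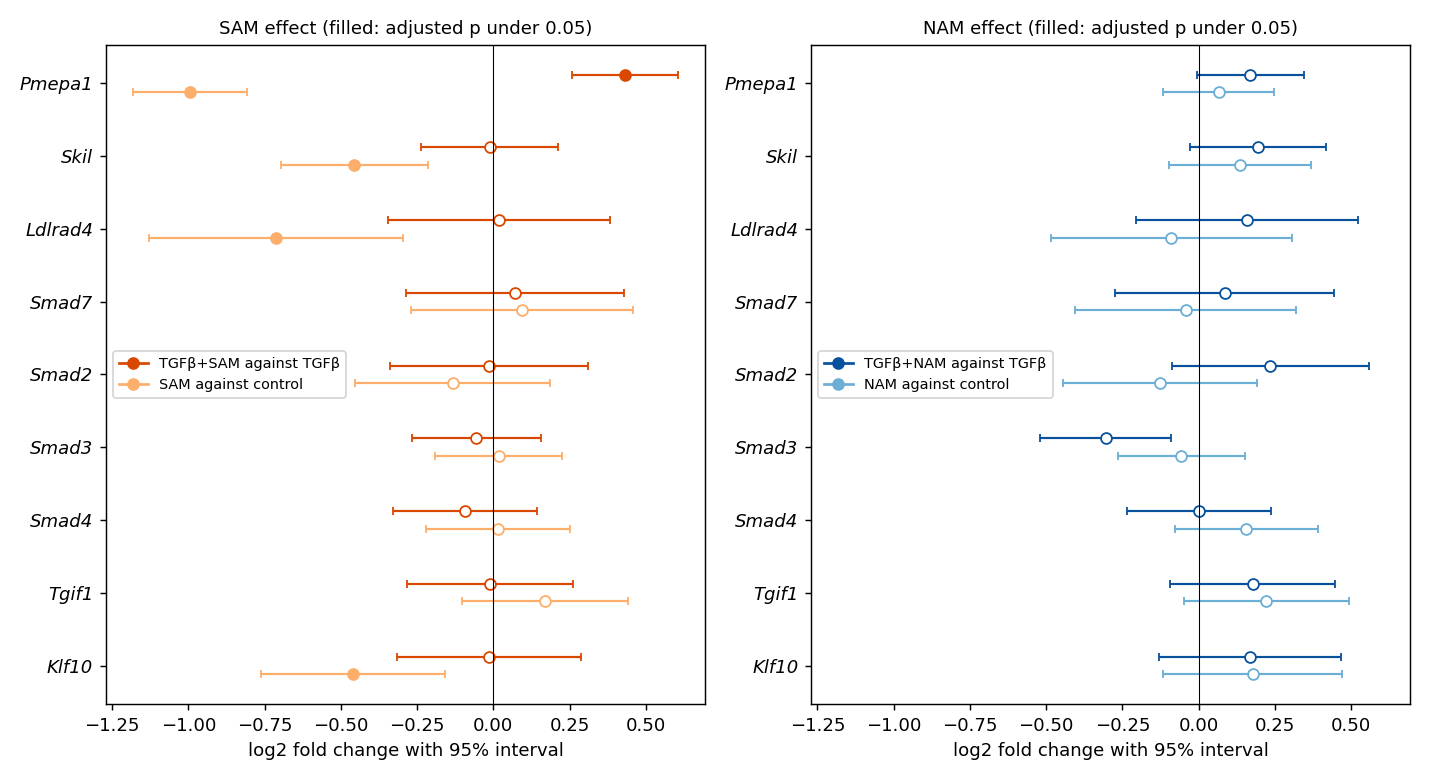
Fitted log2 fold change with 95% interval for SAM (left: TGFβ+SAM against TGFβ, SAM against control) and NAM (right: TGFβ+NAM against TGFβ, NAM against control); filled points have an adjusted p under 0.05. Pmepa1 lies at 0.43 in TGFβ+SAM against TGFβ and at -0.99 in SAM against control, whereas no NAM point is filled.

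In the presence of TGFβ, none of these 4 genes was called lower with SAM. Pmepa1 was 1393, 1508 and 1159 CPM in TGFβ+SAM libraries, against 916, 983 and 1114 CPM in TGFβ libraries, higher without overlap (log2 change 0.43 ± 0.09, adjusted p = 0.000671). It was 1 call among the 9 genes, beside 7.32% of all genes called in either direction. Skil, Ldlrad4 and Klf10 had log2 changes of -0.01, 0.02 and -0.01, with 95% intervals of -0.24 to 0.21, -0.35 to 0.38 and -0.32 to 0.29. The SAM interaction, the log2 TGFβ effect with SAM minus that without it, was 1.43 ± 0.13 for Pmepa1 (95% interval 1.17 to 1.68, adjusted p = 1.65e-10), the 1 gene of the 9 that passed, beside 1.43% of all genes. Leaving out any 1 library gave 1.34 to 1.52. Skil (0.44 ± 0.16), Ldlrad4 (0.73 ± 0.27) and Klf10 (0.45 ± 0.21) had unadjusted p of 0.00946, 0.0109 and 0.0405 and did not pass after adjustment over all genes (0.226, 0.241 and 0.444). In TGFβ+SAM against SAM, 4 of the 9 genes were called higher and none lower, beside 14.2% of all genes in each direction. The SAM libraries enter that comparison as its background and SAM against control as its treated group, so both calls of a gene rest on the same 3 libraries.

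No change with NAM passed the test in the 9 genes. In NAM against control no gene passed edgeR's test, and none had an unadjusted p under 0.05; 0.00742% of all genes were called. DESeq2 called 0 of the 3 genes to which it gave an adjusted p, Smad3, Skil and Pmepa1. The fitted log2 changes ran from -0.13 to 0.22. Skil was the 1 gene whose NAM libraries (58.2, 59.6 and 59.6 CPM) all lay above the control libraries (55.1, 48.9 and 57.6 CPM), as in 7.14% of all genes. In TGFβ+NAM against TGFβ again 0 genes passed with edgeR or DESeq2, beside 0.0817% of all genes. Smad3 alone had an unadjusted p under 0.05 there, with a log2 change of -0.30 ± 0.11 and an adjusted p of 0.446 in the edgeR fit. Of the 9 estimates 8 were positive, with a median of 0.17, beside 0.00 over all genes, and none passed. They come from the same libraries, so their signs are not independent. The NAM interaction called 0 of the 9 with either tool, 0 at an unadjusted p under 0.05, and 0% of all genes. The 95% intervals of that interaction were -0.15 to 0.36 for Pmepa1, -0.26 to 0.38 for Skil and -0.29 to 0.78 for Ldlrad4.

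Ordered by mean level over the 6 groups, Pmepa1 ran from TGFβ+SAM (1353 ± 178 CPM) through TGFβ+NAM (1129 ± 82.3) and TGFβ (1004 ± 101) to NAM (212 ± 2.66), control (203 ± 10.6) and SAM (102 ± 4.89; SD, n = 3 each). Neighbouring means differed by more than the sum of their SDs between TGFβ and NAM and between control and SAM, and by less between the other neighbours. Ldlrad4 stood in the order TGFβ+NAM, TGFβ+SAM, TGFβ, control, NAM and SAM, with steps beyond the SDs between TGFβ and control and between NAM and SAM. Skil had the order TGFβ+NAM, TGFβ, TGFβ+SAM, NAM, control and SAM, with steps beyond the SDs between TGFβ+NAM and TGFβ, between TGFβ+SAM and NAM and between control and SAM. For Smad2, Smad3, Smad4, Smad7 and Tgif1 no step did, and for Klf10 the step from TGFβ+SAM to SAM alone did. SAM was the lowest of the 6 groups for Pmepa1, Skil, Ldlrad4, Klf10 and Smad2.

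The median log2 change of the 9 genes with TGFβ was 0.29, 0.32 and 0.35 on the control, NAM and SAM backgrounds, beside 0.01, 0.00 and 0.00 over all tested genes. Other genes of the pathway were followed in 4 lists, given here by counts and medians. Genes named outside the naming rule (Tcf4, Junb, Atf3, Smad5, Zeb1, Smurf1, Smurf2, Itgb6, Bhlhe40 and Nuak1) were chosen after their values were seen. Among 20 tested direct TGFβ target genes of matrix, contraction and cell cycle, 11 rose and 1 fell with TGFβ alone (median 0.51), 12 rose and 2 fell with NAM (0.77) and 14 rose and 2 fell with SAM (0.91). Of all tested genes, 9.7% were called higher and 9.74% lower with TGFβ alone, 10.9% and 11% with NAM, and 14.2% in each direction with SAM, and the counts of the other lists are to be read against the same shares. Tgfbi, Ltbp2 and Tgfb1i1 were below the low-count filter. The 9 genes and the lists were chosen with results of these data known, so their direction is no independent evidence.

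Ccn2, a matricellular growth factor, averaged 2744 ± 81.4 CPM in TGFβ and 478 ± 10.8 CPM in control (2.52 ± 0.08, adjusted p = 8.67e-25). Acta2, smooth muscle actin, averaged 1033 ± 50.7 CPM in TGFβ and 83.7 ± 9.90 CPM in control (3.62 ± 0.10, adjusted p = 2.97e-27). Col1a1, a chain of collagen I and also a fibroblast marker, averaged 109 ± 2.91 CPM in TGFβ and 5.10 ± 2.05 CPM in control (4.44 ± 0.21, adjusted p = 6.45e-21). Tagln, a smooth muscle protein that binds actin, averaged 400.1 ± 31.4 CPM in TGFβ and 85.9 ± 2.72 CPM in control (2.22 ± 0.14, adjusted p = 4.86e-16). Tsc22d1, Rasl11b and Hmga2 had log2 changes of 0.01, -0.11 and -0.11 and did not pass. The 1 gene that fell was Itgb6, an integrin subunit known for activating latent TGFβ, at 5.83 ± 0.547 CPM in TGFβ and 22.5 ± 3.49 CPM in control (-1.95 ± 0.24, adjusted p = 1.5e-08). It fell on the other backgrounds too (-1.98 and -2.23), where Rasl11b was the second gene called lower (-0.36 with NAM and -0.44 with SAM). The Rasl11b call was lost without NAM replicate 3 (adjusted p = 0.0581), without TGFβ+NAM replicate 2 (0.14) or 3 (0.0904), and, with SAM, without TGFβ+SAM replicate 1 (0.0512). With SAM replicate 1 as the only SAM library, the log2 change of Rasl11b in TGFβ+SAM against SAM was -0.44.

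Of the same 20 targets, SAM against control called 6 lower and none higher (median -0.26), beside 6.79% and 5.02% of all genes. The SAM interaction called 5 higher and none lower (median 0.20, beside 0.00 over all genes), where 0.802% of all genes were called higher and 0.631% lower. The 5 were Ccn2 (1.17 ± 0.12), Tagln (1.12 ± 0.20), Acta2 (1.09 ± 0.14), Bhlhe40 (0.77 ± 0.16) and Nuak1 (0.60 ± 0.15). Ccn2 averaged 214 ± 26.2 CPM in SAM and 478 ± 10.8 CPM in control, and 2762 ± 371 CPM in TGFβ+SAM and 2744 ± 81.4 CPM in TGFβ. As with Pmepa1, the groups without TGFβ stood further apart than those with it on the log2 scale. In TGFβ+SAM against TGFβ, 2 of the 20 targets were called higher and 2 lower (median 0.02), beside 3.07% and 4.25% of all genes. Acta2 averaged 1320 CPM in TGFβ+SAM and 1033 CPM in TGFβ, whereas Col1a1 averaged 42.9 and 109 CPM. With both SAM libraries of conflicting tags left out, SAM replicate 1 was the only SAM library. The interactions of Bhlhe40 and Nuak1 were then 0.72 and 0.68. The Nuak1 call was lost without any 1 of 6 libraries, with adjusted p of 0.0529 to 0.0972. These were control replicate 1, TGFβ replicate 1, SAM replicates 1 and 2, and TGFβ+SAM replicates 1 and 2.

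**Figure D4:**
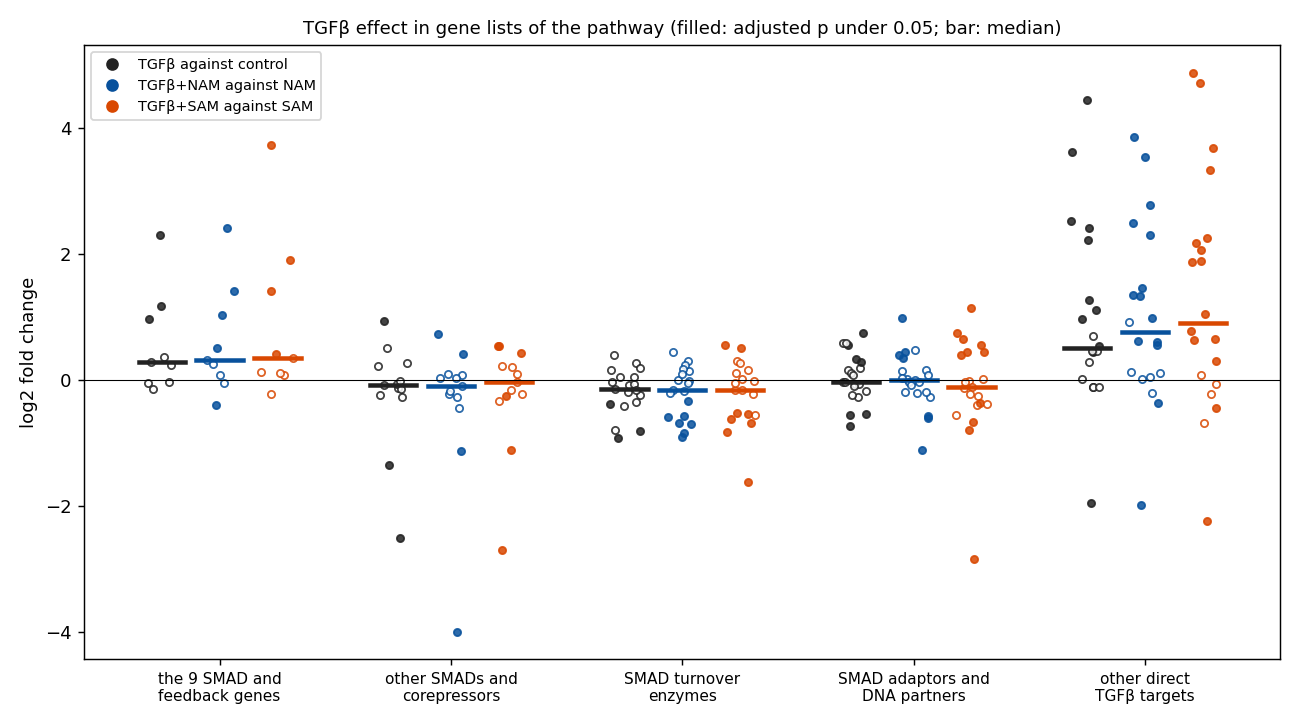
Fitted log2 fold change of each tested gene of the 9 SMAD and feedback genes and of 4 pathway lists, for TGFβ against control, TGFβ+NAM against NAM and TGFβ+SAM against SAM; each point is 1 gene, filled where the adjusted p is under 0.05, and bars are medians. Medians of the other direct targets are 0.51, 0.77 and 0.91, whereas those of the SMADs and corepressors, the turnover enzymes and the adaptors lie between -0.16 and 0.00.

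Among 13 other SMADs and corepressors, 1 rose and 2 fell with TGFβ alone (median -0.08), 2 rose and 2 fell with NAM (-0.09), and 3 rose and 3 fell with SAM (-0.03). With TGFβ alone these counts lie near the shares of all genes called, 9.7% higher and 9.74% lower. The genes that fell were Smad6, the inhibitory SMAD of the bone morphogenetic protein (BMP) branch, and Smad9, a BMP-activated SMAD. Smad6 averaged 20.2 ± 4.73 CPM in TGFβ and 52.3 ± 8.45 CPM in control (-1.35 ± 0.17, adjusted p = 4e-08), and its log2 change was -1.13 with NAM and -1.11 with SAM. Smad9 averaged 1.48 ± 0.377 CPM in TGFβ and 8.46 ± 1.16 CPM in control (-2.51 ± 0.52, adjusted p = 0.000219), on 24 and 168 reads. So the inhibitory SMADs Smad6 and Smad7 had log2 changes of opposite sign, of which that of Smad6 passed. Zeb2, a zinc-finger factor that binds SMADs and represses epithelial genes, averaged 38.3 ± 3.16 CPM in TGFβ and 20.0 ± 0.850 CPM in control (0.94 ± 0.16, adjusted p = 2.43e-05).

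Zeb1, its relative, passed with NAM (0.42, adjusted p = 0.0226) and with SAM (0.54, 0.00253). The NAM call of Zeb1 was lost without NAM replicate 1 (0.0647) or 3 (0.194) and without TGFβ+NAM replicate 2 (0.114) or 3 (0.0892). It was also lost with the compared groups alone (0.0738) and without both libraries set apart (0.0653). With SAM, Smad5, another BMP-activated SMAD, was also higher (0.44, adjusted p = 0.00115), and Ski, the corepressor akin to SnoN, was lower (-0.26, 0.0325). The Ski call was lost without SAM replicate 1 (0.198) or 3 (0.112), without TGFβ+SAM replicate 2 (0.071) or 3 (0.0964), and without the low-count filter (0.0772). Zeb2 passed in the same comparison (0.54, 0.0076), a call lost without SAM replicate 2 (0.0566) or TGFβ+SAM replicate 2 (0.078). With SAM replicate 1 as the only SAM library, the log2 change of Zeb2 was 0.41. Ncor1 and Ctbp1, broad corepressors, had log2 changes of -0.15 and -0.01 with TGFβ alone, and Ski -0.24, and none of the 3 passed. Ski passed with library totals (adjusted p = 0.0365), DESeq2 (0.0454), the compared groups alone (0.039) and without both libraries set apart (0.0432). The SAM interactions of Zeb1, Smad5 and Ski did not pass (adjusted p = 0.684, 0.674 and 0.981).

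Among 19 enzymes that mark SMADs and receptors for degradation or remove phosphate and ubiquitin from them, 3 fell with TGFβ alone and none rose (median -0.14). With NAM 7 fell and none rose (-0.16), and with SAM 6 fell and 2 rose (-0.15), beside 9.74%, 11% and 14.2% of all genes called lower and 9.7%, 10.9% and 14.2% called higher. Pdp1, a pyruvate dehydrogenase phosphatase with a reported action on SMADs, averaged 26.8 ± 5.66 CPM in TGFβ and 50.8 ± 7.88 CPM in control (-0.92 ± 0.15, adjusted p = 8.51e-06). Ctdspl, a small C-terminal domain phosphatase, averaged 40.5 ± 5.93 CPM in TGFβ and 70.4 ± 4.93 CPM in control (-0.81 ± 0.16, adjusted p = 0.000174). Stub1, a chaperone-linked ubiquitin ligase, averaged 143 ± 8.02 CPM in TGFβ and 186 ± 11.2 CPM in control (-0.37 ± 0.10, adjusted p = 0.00533). The ligases Nedd4 and Nedd4l and the phosphatase Ppm1a did not pass with TGFβ alone (-0.09, -0.24 and -0.03), while Nedd4l was lower with NAM (-0.57, adjusted p = 2.74e-05) and with SAM (-0.62, 3.06e-06). The 2 genes that rose with SAM were Smurf1 (0.55, 0.00119) and Smurf2 (0.51, 0.018), the ligases that SMAD7 brings to the receptor. The Smurf1 call was lost without TGFβ+SAM replicate 1 (0.0514). The Smurf2 call was lost without SAM replicate 2 (0.0968) or 3 (0.105) or TGFβ+SAM replicate 2 (0.0624). With both SAM libraries of conflicting tags left out, which leaves SAM replicate 1 alone, the log2 change of Smurf2 was 0.18. The SAM interactions of Smurf1, Smurf2 and Nedd4l did not pass (adjusted p = 0.64, 0.931 and 0.216). In SAM against control, 3 of the 19 enzymes were called higher and none lower, beside 5.02% and 6.79% of all genes. Nedd4l averaged 138 CPM in SAM and 105 CPM in control, and 89.5 CPM in TGFβ+SAM and 89.4 CPM in TGFβ.

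Among 21 tested adaptors and DNA-binding partners of SMADs, 4 rose and 3 fell with TGFβ alone (median -0.03), 4 rose and 3 fell with NAM (0.00), and 7 rose and 4 fell with SAM (-0.11). Of all genes 9.7%, 10.9% and 14.2% were called higher and 9.74%, 11% and 14.2% lower, and several of these counts lie near those shares. Bambi and Foxh1 were below the low-count filter. Fkbp1a, the immunophilin that keeps the type I receptor silent, averaged 410.3 ± 15.4 CPM in TGFβ and 278 ± 14.4 CPM in control (0.56 ± 0.08, adjusted p = 1.71e-06). Runx1, a DNA-binding partner, averaged 179.8 ± 17.1 CPM in TGFβ and 107 ± 2.72 CPM in control (0.75 ± 0.12, adjusted p = 4.39e-06). Tcf4 (0.33, adjusted p = 0.011) and Junb (0.29, 0.0482) also rose with TGFβ alone. The Tcf4 call was lost without control replicate 3 (0.128). The Junb call was lost without any 1 of 12 libraries (control 1, 2 and 3, TGFβ 1 and 2, NAM 1, 2 and 3, TGFβ+NAM 2, SAM 1, 2 and 3; 0.0524 to 0.206) and in 6 other settings, DESeq2 (0.0511) and library totals (0.0864) among them. Tob1, an antiproliferative cofactor, fell by 0.55 ± 0.11 on the log2 scale (adjusted p = 0.000261), and Zfyve9 (SARA), which brings SMADs to the receptor, fell by 0.54 ± 0.14 (0.00356). Sptbn1, Crebbp and Sp1 had log2 changes of -0.07, -0.03 and -0.04 and did not pass.

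Atf3, a stress-induced factor that joins SMAD3 on some promoters, averaged 15.1 ± 3.76 CPM in TGFβ and 25.1 ± 1.88 CPM in control (-0.74 ± 0.21, adjusted p = 0.00892), a call lost without TGFβ replicate 1 (0.111). In TGFβ+SAM libraries it averaged 4.55 ± 1.17 CPM, against 32.3 ± 3.48 CPM in SAM libraries (-2.83 ± 0.24, adjusted p = 7.79e-13). It was the 1 partner gene whose SAM interaction passed (-2.10 ± 0.32, adjusted p = 3.98e-05), with a sign opposite to that of Pmepa1.

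For each gene that rose with TGFβ alone, the 3 genes with the most similar level were sought by Pearson's r of log2 CPM over the 18 libraries, among 9687 candidates with a mean of at least 5 CPM. For Pmepa1 they were Palld (r = 0.994), Acta1 (0.993) and Swap70 (0.993), and Acta1 may share reads with its paralogue Acta2. For Skil they were Fn1 (0.987), Itgb1 (0.987) and Ccn4 (0.985). For Ldlrad4 they were Vgll3 (0.974), Gadd45b (0.967) and Col5a1 (0.966). Fn1 and Col5a1 encode matrix proteins, and Itgb1 an integrin subunit that binds matrix. The 18 points share the 6 groups and the difference between TGFβ-treated and untreated libraries, so these r values are a description.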

How the data were processed

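Reads per gene were deposited by the authors as raw counts in 1 table, with 18 library columns and 55487 genes. The libraries were made with a QuantSeq 3′ FWD kit, per the labels' protocols. STAR and HTSeq were used, per the submitters' processing notes, which name the build GRCh38 although every gene row carries a mouse identifier. Versions and the strand setting are not given in the sources used here. The 5 special rows (22.8% to 28.2% of reads without a feature, 0.607% to 0.779% ambiguous) were left out of library sizes and tests.

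From these counts, genes were kept by filterByExpr (minimum count 10) and fitted with edgeR 4.0.16 (limma 3.58.1, R 4.3.3), TMM scaling and a term per group over all 18 libraries. There were 7 comparisons and 2 interactions, tested with two-sided quasi-likelihood F tests and Benjamini-Hochberg adjustment over 13469 genes, with a threshold of 0.05. CPM values use TMM factors. Standard errors and 95% intervals come from the fit. Symbols and coordinates come from a GRCm38 annotation (GENCODE M21), not necessarily the release counted against. Reads carry no molecular identifiers and are not independent molecules. The script was tested on simulated data. With 3 libraries a side, the smallest two-sided p of an exact permutation test is 0.1, so no permutation test of a single gene was run.

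The 9 genes and the 4 lists were chosen with earlier results of these data known; some listed genes are not reported here. Named were all 9 genes, and from each list up to 4 called genes with the smallest p in TGFβ against control and up to 3 others with the highest mean CPM; genes named beyond this rule are marked as such. The 5 sets of cell type markers were given as sums. Groups follow the sample titles. Other settings tried were DESeq2 1.42.0, its type of size factors in edgeR, plain library totals, a minimum count of 30 or no filter on low counts, a replicate block, the compared groups alone, leaving out the SAM libraries of conflicting tags or the 2 libraries that stood apart, and leaving out each library in turn. Replicates differed beyond counting noise (chi-square per degree of freedom 3.43 to 15.8).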

Additional observations from a re-analysis of the deposited data

Results flagged for a closer look

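A group of 7 named genes had a TGFβ effect that differed with SAM, by the interaction term of the fit (TGFβ+SAM against SAM minus TGFβ against control). Of all tested genes, 1.43% were called in this interaction. Atf3, Bhlhe40 and Nuak1 were named after their values were seen, so the 7 are no measure of how common such calls were. Pmepa1 had a difference of 1.43 on the log2 scale (adjusted p = 1.65e-10), Ccn2 1.17 (5.47e-09), Tagln 1.12 (0.000646), Acta2 1.09 (1.44e-06), Bhlhe40 0.77 (0.00403) and Nuak1 0.60 (0.0198). Atf3 had a difference of -2.10 (3.98e-05). The Nuak1 call was lost in 6 of the fits that left out a library. Pmepa1 averaged 1353 CPM in TGFβ+SAM and 102 CPM in SAM, against 1004 CPM in TGFβ and 203 CPM in control. Whether the separate run of library numbers of the SAM and TGFβ+SAM libraries has a part in these differences was not tested.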

How the results depend on the processing

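Over the settings other than leaving out 1 library, 713 of 723 values of the 9 genes kept their direction or side of the threshold, 10 lost a call and none gained or reversed one; 20 uncalled values changed sign. Leaving out 1 library at a time kept 1439 of 1458, with 18 calls lost, 1 gained and none reversed. The number of the 9 genes called ranged from 3 to 3 in TGFβ against control, from 3 to 5 in TGFβ+NAM against NAM (3 without TGFβ+NAM replicate 2), from 3 to 5 in TGFβ+SAM against SAM and from 1 to 4 in SAM against control (2 without control replicate 1, 1 without SAM replicate 2). It stayed at 0 in both NAM comparisons and in the NAM interaction, and at 1 in TGFβ+SAM against TGFβ and in the SAM interaction. The settings counted here include the fit without SAM replicates 2 and 3, in which SAM replicate 1 was the only SAM library. There the log2 change of Pmepa1 in SAM against control was -1.06. Same-numbered libraries of the compared groups showed no shared deviation (correlations between -0.0997 and 0.0696). These values cannot show whether such libraries were prepared together. With a replicate block the counts were 3, 5, 4, 0, 4, 0 and 1 for TGFβ against control, TGFβ+NAM against NAM, TGFβ+SAM against SAM, NAM against control, SAM against control, TGFβ+NAM against TGFβ and TGFβ+SAM against TGFβ, and 0 and 1 for the NAM and SAM interactions. The Smad7 call in TGFβ+NAM against NAM was also lost with library totals (adjusted p = 0.0666) and DESeq2 (0.065). The Klf10 call in TGFβ+SAM against SAM was lost without the low-count filter (0.0671) and with the compared groups alone (0.0771), and in SAM against control without the filter (0.0547). The Pmepa1, Skil and Ldlrad4 calls in the 3 TGFβ comparisons held in all 27 alternatives each. The median SE of the 9 genes was 0.14 on the log2 scale in TGFβ against control, beside 0.20 over all genes, and changes near that size lie within the error of the fit.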
